A study of Arabidopsis thaliana with 4 samples.

Results

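Starch is the store of glucose that plant plastids build and take apart. Its synthesis starts with ADP-glucose pyrophosphorylase, whose large and small subunits make ADP-glucose, the substrate of the starch synthases. Branching enzymes then add the side chains that let the glucan pack into granules. Breakdown in leaves starts with dikinases that phosphorylate the granule surface, after which hydrolases and a disproportionating enzyme turn the glucan into maltose and glucose. Several of these genes respond to sugar, and the large-subunit isoforms APL3 and APL4 are known in Arabidopsis as sugar-inducible ones.

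The transcripts followed here are those of 6 gene symbols. APL3, APL4 and SBE2.2 stand for synthesis, and AMY1, DPE1 and PWD for breakdown. The members were all probe sets that the platform annotation assigns to these symbols, which gave 7 of the 22746 probe sets measured, for 7 of the 13286 loci that could be named. The extra probe set arises because the annotation gives the symbol PWD to 2 loci. One is AT5G26570, which the RefSeq gene table also lists as ATGWD3 and OK1. The other is AT4G24450, which the same table lists under both ATGWD2 and GWD3. They are kept apart here by their locus. None of the 7 probe set names (0 of 7) carries a suffix for probes shared between transcripts.

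The arrays compared whole 9-day-old seedlings of Arabidopsis thaliana, wild type (Columbia accession) and the css1 mutant, with 2 arrays per genotype and an independent RNA sample for each array. All seedlings grew for that time under continuous light on B5 agar with 2% sucrose, so both genotypes had sugar in the medium. Which gene is altered in css1, in what background, and how many seedlings entered a sample is not in the labels. The values are log2 signals, so a difference of 1 is a doubling. The number of arrays limits their precision, and the median standard error of a difference was 0.0996 log2 units over all probe sets. In whole seedlings a change in the number of cells of a type and a change in RNA per cell cannot be told apart. Here and below, a listed gene is called measured only if a probe set was named for that gene alone. Others of the lists may be among the 8730 probe sets without a listed gene or the 503 with several. Tissue could thus be checked on few markers. Of the green tissue list 1 of 7 markers was measured, RCA (Rubisco activase), at 13.68 and 13.73 in wild type and 13.50 and 13.45 in css1. Of the root list it was also 1 of 7, EXPA7 (a root hair expansin), at 7.21 and 6.94 in wild type and 6.68 and 6.81 in css1. RCA differed by −0.23 (limma, adjusted p = 0.128) and EXPA7 by −0.33 (adjusted p = 0.123), and the part of these shifts in the results was not tested. No member of the seed list (0 of 7) was measured by a named probe set.

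On every array of css1 each of the 7 probe sets had a higher signal than on either wild-type array. Non-overlap of this kind and direction was found for 26.6% of all probe sets, and its opposite for 33.4%. All 3 synthesis genes passed limma's test in the direction of higher signal in css1 (p adjusted by Benjamini and Hochberg's method across the 22746 probe sets, threshold 0.05), as did 1 of 4 breakdown probe sets. The share of all probe sets that passed in this direction was 7.63%, and 8.01% passed as lower. The median difference was 1.01 log2 units for the 3 synthesis genes and 0.59 for the 4 breakdown probe sets, against −0.03 over all probe sets. Since the members were chosen with results of these arrays known, these medians are a description.

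**Figure D1:**
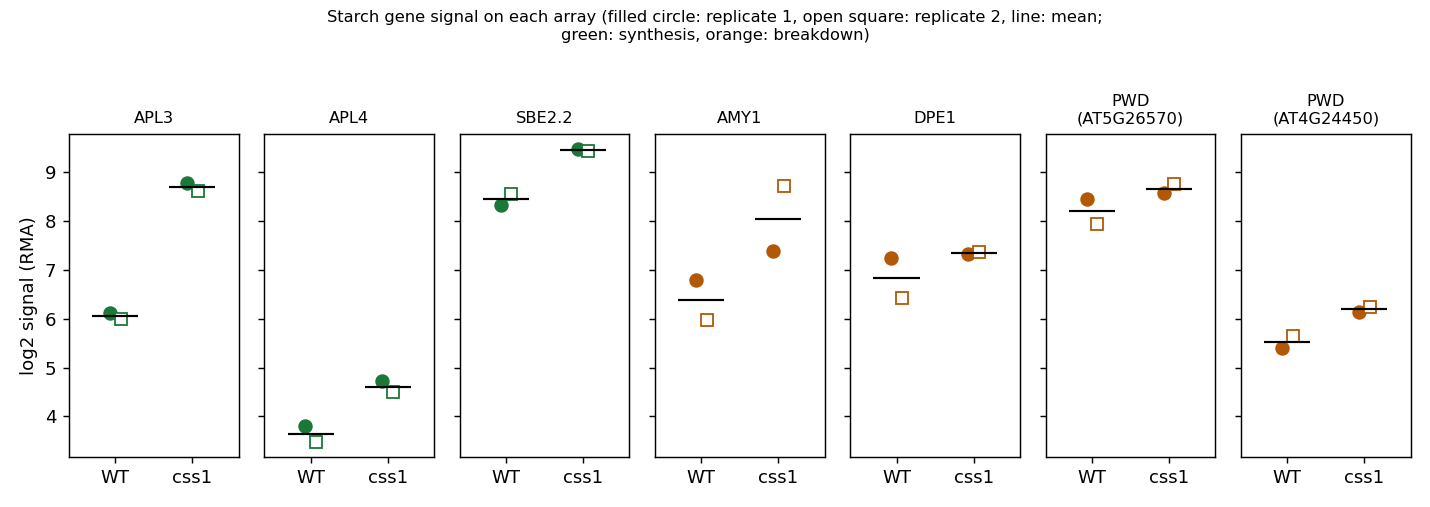
Log2 signal (vertical axis) of the 7 starch probe sets on each array, by genotype (horizontal axis); filled circles are replicate 1, open squares replicate 2 and lines the mean of 2 arrays. APL3 went from 6.11 and 5.98 in wild type to 8.79 and 8.62 in css1, while AMY1, DPE1 and PWD (AT5G26570) were lower on wild-type replicate 2 than on replicate 1.

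APL3, which had the largest difference of the 3 synthesis genes, encodes a large subunit of ADP-glucose pyrophosphorylase. Its log2 signal was 6.11 and 5.98 on the wild-type arrays and 8.79 and 8.62 on the css1 arrays. The genotypes lay far apart beside the gaps between replicates, of 0.13 in wild type and 0.17 in css1. Those gaps were larger than in 52.4% and 72.8% of all probe sets. The mean went from 6.05 ± 0.09 (SD, n = 2) to 8.70 ± 0.12 (SD, n = 2), a rise of 6.30-fold with a 95% interval of 5.29 to 7.51 (limma, adjusted p = 6.20e-04). Ordered by p, APL3 stood at rank 12 of the 22746 probe sets, and ordered by the size of a rise at rank 49.

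APL4 encodes another large subunit of the same enzyme. Its signal was 3.81 and 3.47 in wild type and 4.72 and 4.49 in css1. These are dim values, since only 16.1% of probe sets had a lower wild-type mean. The genotypes did not overlap, and the gap between the lowest css1 and the highest wild-type value was 0.69. The difference was 0.96 log2 units (SE 0.14, limma adjusted p = 0.0130), with a 95% interval of 0.61 to 1.32. No fold is given for signals this low. With css1 replicate 1 left out APL4 no longer passed (0.85, adjusted p = 0.0840), nor did it with css1 replicate 2 left out (1.07, adjusted p = 0.0641). With all arrays in the fit, the 2 isoforms known as sugar-inducible both passed as higher in css1, APL4 less firmly and with dim signals. The sizes of their rises were not compared.

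SBE2.2 encodes a starch branching enzyme. Its signal was 8.34 and 8.55 in wild type and 9.48 and 9.43 in css1. The css1 arrays were 0.05 apart, and both wild-type arrays were lower. The difference was 1.01 log2 units (SE 0.11, limma adjusted p = 0.00529), a rise of 2.02-fold with an interval of 1.69 to 2.42. Without each array in turn the difference of SBE2.2 ran from 0.905 to 1.12, and that of APL3 from 2.57 to 2.74. The small subunits, the starch synthases, the debranching isoamylases and the other branching enzymes were in the list of further synthesis genes. No probe set was named for 15 of its 16 loci, and they are not analysed here.

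The measured locus of that list was AT5G39790, to which the gene tables give no name. Its signal was 6.01 and 5.79 in wild type and 6.67 and 6.91 in css1. Both css1 arrays were higher, and it rose by 0.89 log2 units (SE 0.13, limma adjusted p = 0.0114). It no longer passed when css1 replicate 2 was left out (0.77, adjusted p = 0.0823). NTRC, a plastid thioredoxin reductase known to keep ADP-glucose pyrophosphorylase in its reduced, active form, was looked up after the annotation had been read. It was at 9.13 and 9.16 in wild type and 8.96 and 8.97 in css1, a difference of −0.18 (limma, adjusted p = 0.215) with an interval of −0.38 to 0.03.

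**Figure D2:**
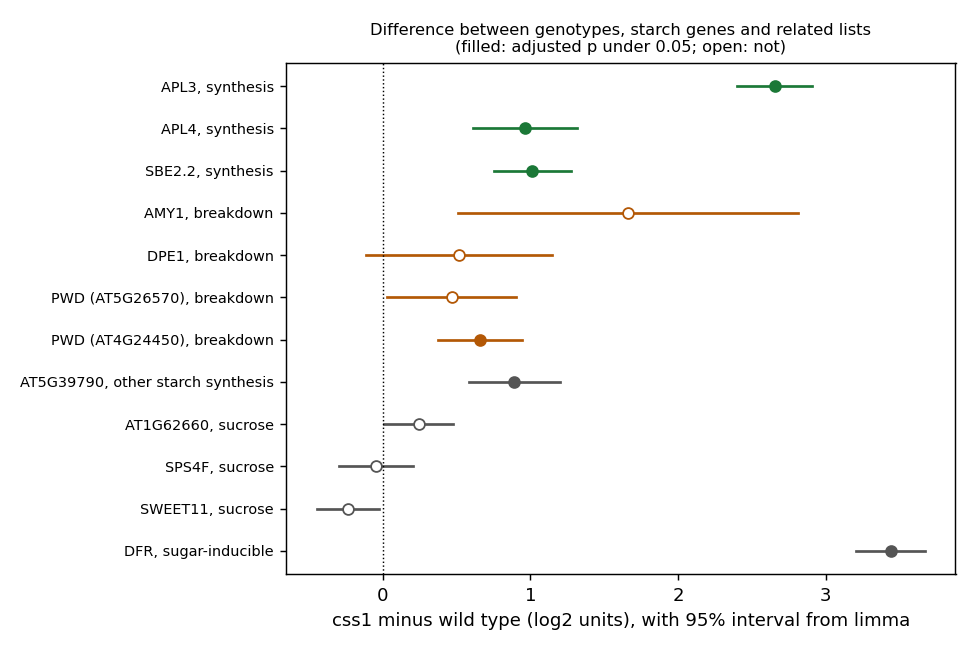
Mean css1 minus wild-type difference in log2 units (horizontal axis) with limma's 95% interval, for the 7 starch probe sets and the measured members of the further synthesis, sucrose and sugar-inducible lists (vertical axis), n = 2 arrays per genotype; filled points have an adjusted p under 0.05. APL3 at 2.66 has a narrow interval, and AMY1 at 1.66 the widest, from 0.51 to 2.81.

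Of the breakdown genes, AMY1, an alpha-amylase that is secreted and lies outside the plastid, had signals of 6.80 and 5.97 in wild type and 7.38 and 8.71 in css1. The css1 values were higher than both wild-type values, but the arrays of each genotype stood far apart. The gap between the css1 arrays was 1.33 log2 units, and only 7 of 22746 probe sets had a larger one. The difference of the means was 1.66 (SE 0.47), with an interval of 0.51 to 2.81, and it did not pass (limma, adjusted p = 0.0658). Taken against single wild-type arrays, css1 replicate 1 was higher by 0.58 and 1.41, and css1 replicate 2 by 1.91 and 2.74. Without css1 replicate 1 the difference was 2.33 and passed (adjusted p = 0.0471), the lowest value of the alternatives, which reached 0.386. Without css1 replicate 2 it was 0.9995 (adjusted p = 0.211), and without wild-type replicate 2 it was 1.25 (adjusted p = 0.209).

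DPE1 encodes the plastid disproportionating enzyme, which rearranges short maltooligosaccharides during breakdown. Its signal was 7.24 and 6.42 in wild type and 7.33 and 7.36 in css1. The css1 arrays were nearly equal, and wild-type replicate 1 lay just below them. The difference was 0.52 (SE 0.26) with an interval of −0.11 to 1.15 (limma, adjusted p = 0.234). Against wild-type replicate 1 the css1 arrays were higher by 0.09 and 0.12, and against wild-type replicate 2 by 0.92 and 0.94. Without wild-type replicate 1 the difference of 0.93 passed (adjusted p = 0.0124), and without wild-type replicate 2 it was 0.11. The alternatives gave it adjusted p values of 0.0124 up to 0.552.

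The locus AT5G26570 of PWD is the phosphoglucan, water dikinase that acts on glucan chains already phosphorylated by its partner GWD1. Its signal was 8.45 and 7.95 in wild type and 8.57 and 8.76 in css1. As with DPE1, wild-type replicate 1 lay close below the css1 arrays. The difference was 0.47 (SE 0.18) with an interval of 0.03 to 0.91, and it did not pass over all probe sets (limma, adjusted p = 0.137). Without wild-type replicate 1 it was 0.72 and passed (adjusted p = 0.0300), and without wild-type replicate 2 it was 0.22. The alternatives ranged in adjusted p between 0.0300 and 0.449.

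The locus AT4G24450, which shares the symbol PWD in the annotation, had closer replicates. Its signal was 5.40 and 5.65 in wild type and 6.13 and 6.24 in css1. Both css1 arrays were above both wild-type arrays, and wild-type replicate 2 was here the higher of its pair. The difference was 0.66 log2 units (SE 0.12, limma adjusted p = 0.0189), a rise of 1.58-fold with an interval of 1.30 to 1.93. As background, a dikinase of Arabidopsis named GWD2 has been placed outside the plastid. This locus is entered as GWD2 in the list of further breakdown genes, and has ATGWD2 among its synonyms. It no longer passed when css1 replicate 1 (0.72, adjusted p = 0.0902) or css1 replicate 2 (0.60, adjusted p = 0.134) was left out. With the PWD probe set of AT5G26570 alone, 0 of 3 breakdown probe sets passed, with 2 at an unadjusted p under 0.05, a level that 31.7% of all probe sets reached in either direction. The other 21 loci in the list of further breakdown genes, among them GWD1, the beta-amylases and the phosphorylases, had no named probe set and are not analysed here.

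Set array by array, the median of the synthesis genes was more even than that of the breakdown probe sets. The breakdown set is mixed, since AMY1 is secreted and GWD2, the listed name of AT4G24450, has been placed outside the plastid. The median of the 3 synthesis genes lay between 1.02 and 1.24 in the 4 pairs of a css1 and a wild-type array. The lowest value of a synthesis gene in any pair was 0.69, for APL4. The median of the 4 breakdown probe sets was 0.35 for css1 replicate 1 and 0.58 for css1 replicate 2 against wild-type replicate 1, and 0.77 and 0.88 against wild-type replicate 2. The breakdown medians were thus lower in all 4 pairs of arrays, and they depended more on which wild-type array was used. Single members crossed this order. In the pair of css1 replicate 2 and wild-type replicate 2, AMY1 at 2.74 was above APL3 at 2.64. Nor was every synthesis gene the more even, since APL4 ran from 0.69 to 1.24 and AT4G24450 from 0.48 to 0.84. APL3 stayed between 2.51 and 2.80, and SBE2.2 between 0.88 and 1.15. The synthesis and breakdown differences were not tested against each other, since both share the same arrays and the members were chosen with results known.

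**Figure D3:**
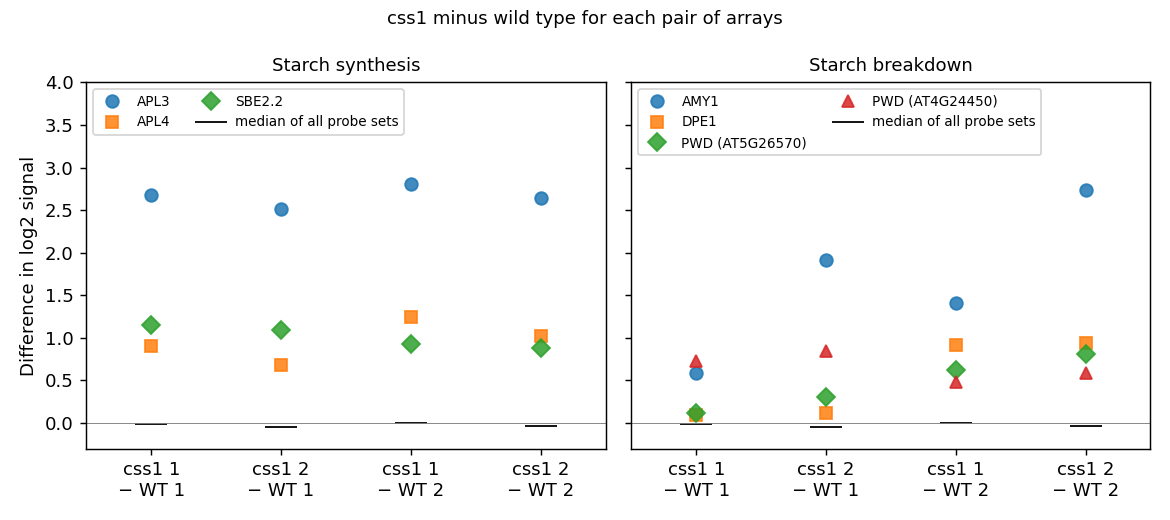
Difference in log2 signal (vertical axis) for each of the 4 pairs of a css1 and a wild-type array (horizontal axis), synthesis on the left and breakdown on the right; dashes mark the median of all probe sets. DPE1 was 0.09 and 0.12 above wild-type replicate 1 but 0.92 and 0.94 above wild-type replicate 2, while APL3 stayed between 2.51 and 2.80.

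The wild-type arrays stood apart in 3 of the 4 breakdown probe sets. AMY1, DPE1 and PWD (AT5G26570) were lower on wild-type replicate 2 than on replicate 1, by 0.83, 0.82 and 0.50 log2 units. The first 2 of these gaps were larger than those of 99.4% of all probe sets, and that of PWD larger than those of 96.9%. A wild-type gap of at least 0.5 in this direction was found in 1.75% of all probe sets. The remaining members had smaller gaps, of 0.13 for APL3, 0.34 for APL4, −0.22 for SBE2.2 and −0.25 for PWD (AT4G24450). The arrays as a whole were alike, with medians of 6.37 and 6.36 and a correlation of 0.996 across probe sets, which are not independent replicates. What set these genes apart on the wild-type arrays was not tested.

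**Figure D4:**
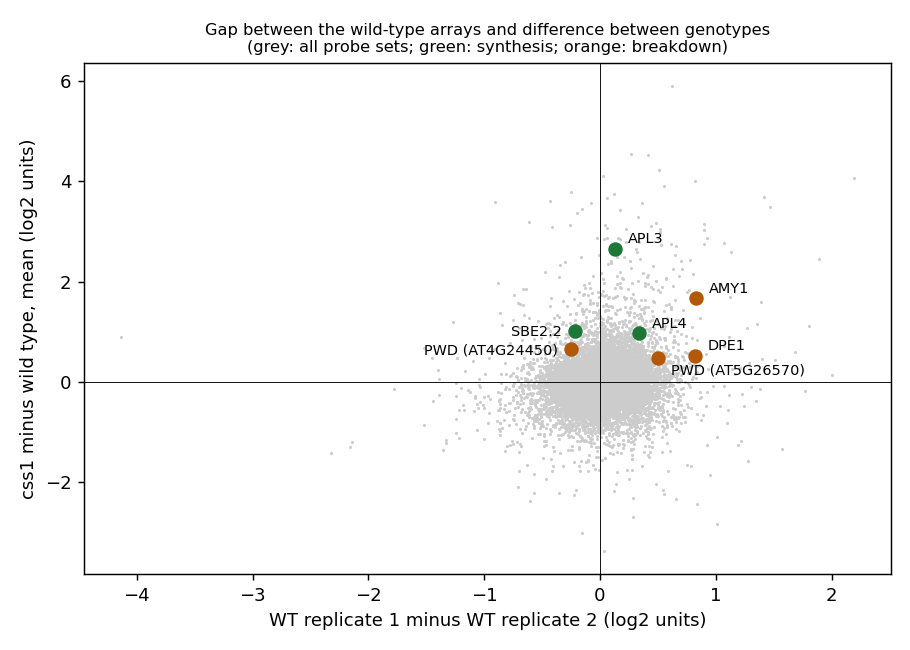
Wild-type replicate 1 minus replicate 2 (horizontal axis) against the mean css1 minus wild-type difference (vertical axis), both in log2 units, for all 22746 probe sets in grey, synthesis in green and breakdown in orange. AMY1, DPE1 and PWD (AT5G26570) lie at wild-type gaps of 0.50 to 0.83, and APL3 at 0.13.

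Sucrose and sugar-inducible genes were looked at beside starch. In the sucrose list, 3 of 20 loci were measured and 0 passed limma's threshold, with 2 at an unadjusted p under 0.05. Over all probe sets 15.6% passed in either direction and 31.7% reached that unadjusted level. SWEET11, a sucrose exporter of the phloem, was at 10.39 and 10.34 in wild type and 10.10 and 10.15 in css1, a difference of −0.24 (interval −0.45 to −0.03, adjusted p = 0.119). AT1G62660 differed by 0.24 (interval 0.01 to 0.48, adjusted p = 0.146). SPS4F, for a sucrose phosphate synthase, differed by −0.04 (interval −0.30 to 0.21, adjusted p = 0.817), and its genotypes overlapped. Of the 10 genes in the sugar-inducible list, which left out APL3 and APL4, 1 was measured. This was DFR, the dihydroflavonol reductase of anthocyanin synthesis, at 6.005 and 6.16 in wild type and 9.54 and 9.50 in css1. Its rise of 3.44 log2 units (SE 0.09, limma adjusted p = 3.51e-04) was larger than that of APL3. The 7 transporters and enzymes in the list of plastid carbon exchange had no named probe set (0 of 7).

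The genes beside the starch genes on the chromosomes were looked up. In the order of protein-coding genes in the RefSeq table, the 7 loci had 14 next genes, of which 11 were measured, and 0 passed limma's threshold in either direction, with 1 at an unadjusted p under 0.05, beside 15.6% and 31.7% of all probe sets. Their differences ran from −0.19 for ATGP4, next to AMY1, to 0.35 for AT2G21580, next to APL4 (adjusted p = 0.0572). On the other side of AMY1 stands SWEET14, a sugar transporter gene, with dim signals of 3.91 and 4.08 in wild type and 4.51 and 4.13 in css1 (0.32, adjusted p = 0.202). Both neighbours of APL3, AT4G39200 and ATRER1A, were at 0.15 and 0.16 (adjusted p = 0.294 and 0.298), where APL3 itself was at 2.66.

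The loci with the pattern most like a member were named by the root mean square distance between their 4 array values, each taken as the deviation from the mean of that gene, over 13286 loci. Nearest to APL3 were AT2G41730 (distance 0.06 log2 units) and AT3G43270 (0.09), which rose by 2.66 and 2.80. The probe set of AT2G41730 carries a suffix for probes shared between transcripts. Within 0.25 lay 14 loci for APL3 and 353 for SBE2.2. These counts depend on the size of each rise, since the distance is in log2 units. The nearest to SBE2.2 were AT5G20180 and AT5G09800, both at 0.05, with rises of 0.96 and 0.91. AMY1 had 2 loci within 0.25, AT2G40435 and AT1G47400, both at 0.24. AT2G40435 had signals of 4.72 and 4.26 in wild type and 5.93 and 6.75 in css1, and AT1G47400 of 7.73 and 6.60 in wild type and 8.50 and 9.21 in css1. Both thus shared with AMY1 the low wild-type replicate 2 and the high css1 replicate 2. With 4 arrays, likeness of this kind is a description only.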

How the data were processed

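The deposited values are log2 signals per probe set, made by the authors with RMA, as the submitters' processing notes name it, and its version is not given in the sources used here. Per the labels' protocols, each array received biotinylated cRNA prepared from 250 ng of RNA. No further scaling was applied, and no array column was left out. After 64 control probe sets were set aside, 22746 probe sets were tested two-sided for genotype, with no other term, by lmFit and eBayes of limma 3.58.1 (R 4.3.3), with Benjamini-Hochberg adjustment over all of them and a threshold of 0.05. The fit was tried on simulated normal values drawn with limma's own spread, which cannot show how well that spread suits these arrays. The annotation gave 1 gene for 13513 probe sets, 13436 of which matched a locus in the RefSeq table (TAIR10.1), and several genes for 503. The 8730 unlisted ones were tested but not named. The members and lists were chosen with earlier results of these data known. The text names all members, every measured gene of the starch, sucrose and sugar-inducible lists, and the 2 loci nearest to APL3, SBE2.2 and AMY1. The SWEET family and NTRC were added after the annotation was read, and SWEET members are named in part, chosen after their values were seen. For loci with several probe sets, the one with the highest mean was used. Promoter and protein sequences were not used here. A permutation of 2 against 2 arrays cannot reach 0.05.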

Additional observations from a re-analysis of the deposited data

How the results depend on the processing

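The number of synthesis genes that passed stayed at 3 or 2 in all alternatives but the two-sample comparison without limma's pooled spread, which called 0 of 22746 probe sets, and so 0 synthesis, 0 breakdown and 0 of the 7 starch probe sets, while 4805 of all, 3 synthesis and 1 breakdown reached an unadjusted p under 0.05. At an adjusted p under 0.01, 773 probe sets, 2 of 7 starch and 0 breakdown probe sets passed. With each array left out in turn, the counts were 560 to 3079 for all probe sets (3559 with all arrays), 2 to 3 for synthesis, 0 to 3 for breakdown, 2 to 6 for all 7 and 1 to 2 for the 5 genes of the neighbouring lists. The breakdown count was 3 without wild-type replicate 1 (DPE1 and both PWD loci) and 0 without css1 replicate 2, and the 1 call without css1 replicate 1 was AMY1 in place of AT4G24450. Counting only the AT5G26570 locus of PWD, chosen after seeing the data, gave 0 of 3. The replicate numbers are shared, and the labels do not say whether same-numbered arrays belong together. Deviations of same-numbered arrays correlated at −0.00605 over all probe sets. A single value over all probe sets cannot show whether some genes shared a batch. The fit with the replicate block gave 1264 calls, 1 of 5 in the neighbouring lists (AT5G39790 was lost, adjusted p = 0.0578), and the same starch counts. The filter on dim probe sets removed APL4. Median centring moved the calls higher in css1 from 1736 to 2069 of 3566, and the starch counts stayed at 3 and 1. No starch difference changed sign. SPS4F, at −0.0447, was at 0.0481 without css1 replicate 1 and at −0.1376 without css1 replicate 2.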

Other observations

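The SWEET family of sugar transporters, which move sucrose or hexoses across membranes along their gradient, was nearly complete among the named probe sets, with 16 of 17 members measured. The family was added after the annotation had been read, and the members named below were chosen after their values were seen. Of these, 2 rose in css1 and 1 fell by limma's test over all probe sets, where 7.63% of all probe sets passed as higher and 8.01% as lower, and the median difference was 0.03 log2 units against −0.03 over all probe sets. SWEET13, a sucrose transporter of the same clade as SWEET11, had signals of 5.06 and 4.80 in wild type and 6.46 and 6.40 in css1, a rise of 1.50 (SE 0.12, adjusted p = 0.00261). SWEET15, also named SAG29 for its link to senescence, was at 5.68 and 5.39 in wild type and 6.65 and 7.15 in css1, a rise of 1.37 (SE 0.19, adjusted p = 0.0109). SWEET2, a vacuolar hexose transporter, was at 8.35 and 8.30 in wild type and 7.66 and 7.53 in css1, a fall of −0.72 (SE 0.09, adjusted p = 0.00887). SWEET10, at 5.44 and 5.28 in wild type and 5.80 and 6.33 in css1, differed by 0.71 and did not pass (adjusted p = 0.0540). The vacuolar members SWEET16 and SWEET17 differed by 0.10 and −0.08, with intervals of −0.11 to 0.30 and −0.32 to 0.16. Apart from SWEET11 and SWEET14, given with the starch genes, the 8 members left did not pass (0 of 8), and their differences ran from −0.38 for SWEET1 (adjusted p = 0.126) to 0.25 for SWEET4 (adjusted p = 0.213).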
